A study of Mus musculus with 16 samples.

Results

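The genes of the JAK–STAT5 pathway and its SOCS feedback were examined in mouse TCF1+CD8+ T cells as 10 genes, chosen by symbol from the deposited table: the kinases *Jak1* and *Jak3*, the transcription factors *Stat5a* and *Stat5b*, the inhibitors *Cish*, *Socs1*, *Socs2* and *Socs3*, and the survival kinases *Pim1* and *Pim2*. They are 10 of the 54532 genes in the table, and all 10 passed the filter on low counts in every comparison. They were chosen with earlier results of these data known, so their counts set against all genes describe these 10 only. The cells were C57BL/6J splenic naive CD8+ T cells that had been activated repeatedly with anti-CD3/CD28 beads and low-dose interleukin-2 (IL-2) over 4 days of culture, a model in which TCF1+ cells are made in vitro rather than taken from a tumour. They were kept for 1 h with or without prostaglandin E2 (PGE2, 100 ng/ml), a lipid that raises cyclic AMP in T cells through its receptors EP2 and EP4. For the next 4 h they received IL-2 (85 U/ml) alone, here called unstimulated, or IL-2 with aCD3/CD28 beads at 1 bead per cell, here called stimulated. This gave 16 poly(A) RNA-seq samples in 4 groups of 4: unstimulated untreated, unstimulated with PGE2, stimulated untreated and stimulated with PGE2. IL-2 was therefore present in every group, and no group shows these genes without it.

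IL-2 binds a receptor whose β chain recruits JAK1 and whose common γ chain recruits JAK3. The activated kinases phosphorylate STAT5A and STAT5B, which are encoded by neighbouring genes and enter the nucleus to bind DNA. Among the genes that STAT5 switches on in T cells are *Cish* and the SOCS genes, whose products bind receptors or JAKs and end the signal, and *Pim1* and *Pim2*, whose kinases need no activating phosphorylation, so that their amount largely sets their activity. Messenger RNA levels do not report the phosphorylation of any of these proteins.

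Total counts per sample were 22678254 to 42950763, and each of the 10 genes had at least 665 reads in every sample. Levels are given as CPM, the reads of a gene relative to the sample's total, after scaling with TMM factors, which keep a few very abundant genes from shifting all others. The summed level of 6 CD8 T cell markers in unstimulated samples was 3480 to 4460 CPM untreated and 3060 to 3930 CPM with PGE2. In stimulated samples it was 2760 to 2930 CPM untreated and 2450 to 2660 CPM with PGE2. The part of these differences in the results was not tested. *Tcf7*, which encodes TCF1 and is 1 of the 6, was present at 289 to 1540 CPM. *Cd4* did not exceed 1.87 CPM, and the summed markers of myeloid, natural killer and erythroid cells stayed at or below 0.507 CPM. The summed level of 4 B cell markers was 10.1 to 20.3 CPM in unstimulated and 4.4 to 11.1 CPM in stimulated samples, and its part in the results was not tested. The labels do not say whether the 4 replicates of a group came from separate cultures or mice, so the p-values may measure technical spread only.

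On GRCm38 the table places *Jak1* at chr4:101152367-101265282 (minus strand), *Jak3* at chr8:71676296-71690575 (plus), *Cish* at chr9:107296026-107302784 (plus), *Socs1* at chr16:10782240-10785536 (minus), *Socs2* at chr10:95385362-95417180 (minus) and *Socs3* at chr11:117966079-117970047 (minus). *Pim1* lies at chr17:29490812-29496111 (plus) and *Pim2* at chrX:7878262-7883432 (plus). *Stat5b* (chr11:100780731-100850724, minus) and *Stat5a* (chr11:100859351-100885169, plus) stand head to head, 8626 bases apart. The STAT5 genes are close copies: 2.21% of the 150-base stretches of *Stat5a* transcripts also occur in *Stat5b* transcripts, and 3.16% in the other direction, and reads from those stretches cannot be assigned by sequence. Exons of *Jak3* share 7.55% of their bases with *Insl3* on the same strand. Exons of *Stat5a* share 72 bases (1.01%) with *Stat3* on the opposite strand, and 14.5% of *Pim1* exon bases face an antisense gene with at most 4 counts. The use of strand in counting is not stated, so reads in these overlaps stay uncertain.

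To show what the start regions of these genes hold, the 250 bases before each RefSeq start (GRCm38.p6) were searched for TTCNNNGAA, the palindrome bound by STAT proteins, which reads the same on both strands. Such windows were given for 9 of the 10 genes (*Socs2* excepted), 12 windows in all. The only match was in *Socs3*, from base 154 to base 146 before the start. Among 32851 RefSeq windows of this length, 7.02% held at least 1 match. The *Jak1* window held TGACGTCA, the palindromic cyclic AMP response element, from base 101 to base 94 before the start. That element occurred in 1.55% of the windows and in no other of the 12. Shown here are the windows of *Socs3* (chr11:117969367-117969616, minus strand), of *Socs1* (chr16:10785537-10785786, minus), which had no match but rose beside *Socs3* with PGE2 in unstimulated cells, and the part of the *Jak1* window upstream of every annotated exon (chr4:101265283-101265473, minus). They read 5′ to 3′ towards the gene, and capitals mark the matches.
Socs3: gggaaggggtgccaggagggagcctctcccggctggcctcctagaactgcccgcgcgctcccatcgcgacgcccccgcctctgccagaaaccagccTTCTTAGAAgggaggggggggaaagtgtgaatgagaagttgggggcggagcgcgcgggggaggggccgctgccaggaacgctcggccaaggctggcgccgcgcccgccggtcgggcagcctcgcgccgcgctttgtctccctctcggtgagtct
Socs1: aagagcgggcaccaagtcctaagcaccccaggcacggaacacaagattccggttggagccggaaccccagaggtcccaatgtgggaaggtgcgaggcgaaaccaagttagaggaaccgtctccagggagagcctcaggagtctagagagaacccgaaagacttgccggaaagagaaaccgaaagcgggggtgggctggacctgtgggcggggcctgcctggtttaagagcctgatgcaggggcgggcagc
Jak1: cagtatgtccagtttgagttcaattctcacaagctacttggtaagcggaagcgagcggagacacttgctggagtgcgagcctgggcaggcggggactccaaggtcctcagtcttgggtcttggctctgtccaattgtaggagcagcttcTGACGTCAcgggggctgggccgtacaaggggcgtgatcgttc
A match of letters does not show that a factor binds there, and these windows leave out any site further away. The *Cish* window lies inside an exon of a longer transcript in the GENCODE annotation, so it need not be the start used in these cells. The *Socs3* window, which held the only STAT match, also lies within the span given above for its gene, downstream of that span's outer end. The same holds for the *Stat5a* windows and for a window each of *Stat5b* and *Pim1*. These windows, too, need not precede the start used in these cells.

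Adding beads changed every one of the 10 genes in untreated cells. By edgeR's quasi-likelihood test, with Benjamini–Hochberg adjusted p below 0.05 over all genes tested, 10 of 10 were called, against 66.5% of all genes tested. Of these, 8 were higher (31.7% of all genes) and 2 were lower (34.8%). A change of at least 2-fold as well was found in 5 of the 10 (23.2% of all genes): *Cish*, *Stat5a*, *Socs1* and *Pim1* rose and *Jak1* fell. In PGE2-treated cells beads changed 8 of 10 (64.2% of all genes), 7 higher (32.5%) and 1 lower (31.7%), and 5 by at least 2-fold (22.1%). The median log2 fold change of the 10 genes was 0.60 without and 0.77 with PGE2, beside -0.03 and 0.00 over all genes tested. Sample ranges did not overlap between beads and no beads for 8 of the 10 without PGE2, against 61.6% of all genes tested. With PGE2 this held for 8 of 10, against 60.2%. In such bulk samples a change in the share of cells that express a gene and a change in its RNA per cell cannot be told apart.

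PGE2 moved fewer of them and by less. In unstimulated cells 5 of 10 were called, against 28.4% of all genes: *Stat5b*, *Socs1* and *Socs3* were higher (12.9% of all genes) and *Socs2* and *Pim2* lower (15.5%). In stimulated cells 2 of 10 were called, against 9.84%: *Jak1* was higher (6.04%) and *Socs2* lower (3.8%). No member changed by 2-fold with PGE2, a change that 3.38% of all genes showed in unstimulated and 1.75% in stimulated cells. Over the 10 genes the median log2 value was 0.06 in unstimulated and -0.06 in stimulated cells, beside 0.00 and -0.01 over all genes. Ranges with and without PGE2 did not overlap for 5 of the 10 in unstimulated cells, against 28.9% of all genes tested. In stimulated cells this held for 2 of 10, against 17.9%. The comparisons of PGE2 in unstimulated and in stimulated cells share no samples. Those of stimulation share their samples with them.

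**Figure D1:**
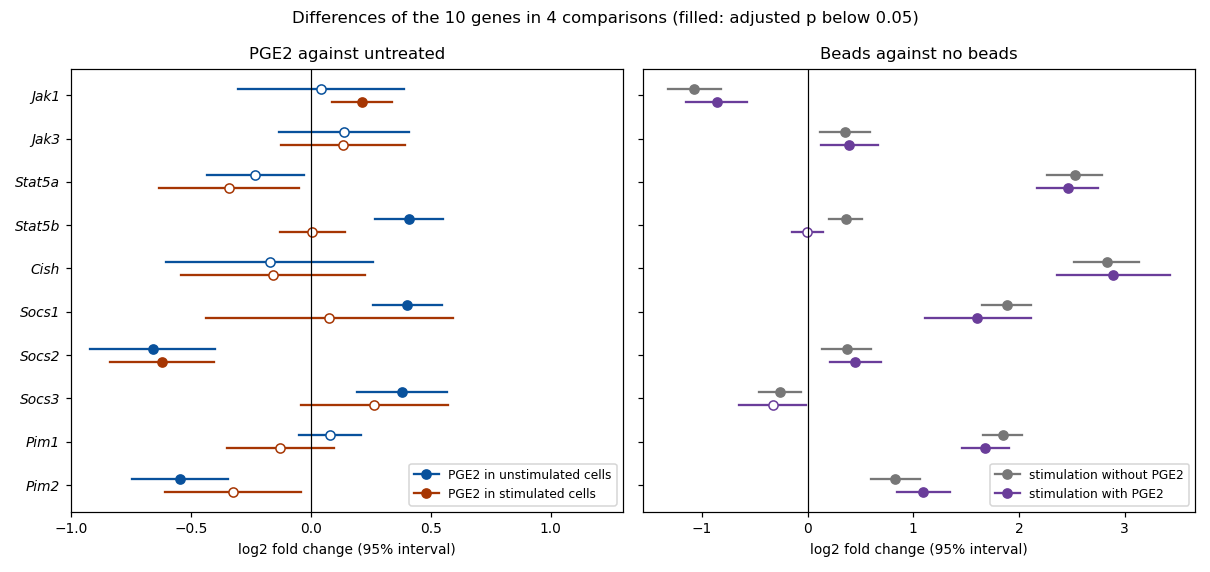
Log2 fold change (x axis) of each gene (y axis) with its 95% interval from edgeR, for PGE2 against untreated cells (left) and beads against no beads (right), 4 samples a group. Filled points have an adjusted p below 0.05. *Socs2* lies left of zero for PGE2 in both states, and *Cish* and *Stat5a* lie furthest right for beads.

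Deviations of samples of the same replicate number correlated positively in all 4 comparisons, most weakly for stimulation with PGE2. The PGE2 comparisons were therefore also fitted with the replicate number as a block. Samples of different number correlated at up to 0.25 in the comparison of stimulated and 0.124 in that of unstimulated cells, so the pairing is not certain. With this replicate block 5 of 10 genes were called in stimulated cells, against 39.8% of all genes, and 8 of 10 in unstimulated cells, against 47.8%. The calls it added were *Stat5a*, *Jak3* and *Pim2* in stimulated and *Cish*, *Stat5a* and *Jak3* in unstimulated cells, and their values stand with each gene.

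**Figure D2:**
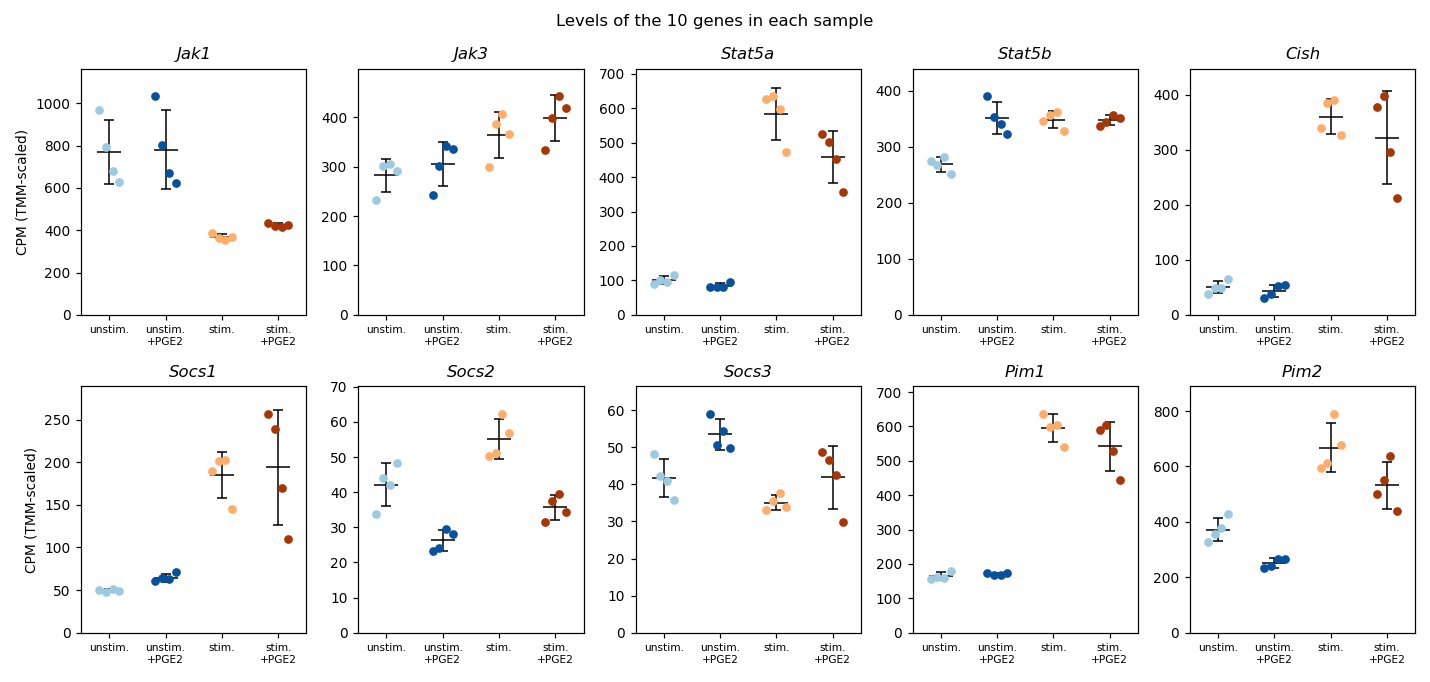
Level of each gene in each sample (y axis, CPM from 0, TMM-scaled) in the 4 groups (x axis: unstimulated and stimulated, without and with PGE2). Points are the 4 replicates in order of their number, with the mean and SD. *Cish*, *Socs1*, *Stat5a*, *Pim1* and, by a small gap, *Pim2* sit higher in every stimulated than in every unstimulated sample, and *Jak1* sits lower.

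*Jak1*, the kinase of the IL-2 receptor β chain and of many other cytokine receptors, was lower after beads. Its 4 unstimulated untreated samples held 970.5, 795, 682 and 626 CPM and its 4 stimulated untreated samples 386, 366, 356 and 367 CPM. The groups did not overlap, and the fold was 0.476 (log2 -1.07, SE 0.12, adjusted p 4.19e-06). With PGE2 the unstimulated samples held 1035, 801, 669 and 621 CPM and the stimulated samples 436, 419.9, 417 and 427 CPM (log2 -0.86, SE 0.13, adjusted p 0.000167). The spread was wide only in unstimulated cells, where replicate 1 was the highest in both groups and replicate 4 the lowest. PGE2 made no detectable difference there (log2 0.04, 95% interval -0.30 to 0.39). In stimulated cells every sample with PGE2 was above every sample without, by 1.16-fold (log2 0.21, SE 0.06, adjusted p 0.0415). That call was lost whenever any 1 of the 8 samples was left out (adjusted p 0.0555 to 0.117) and in 12 of 14 alternatives, and stood with DESeq2 (adjusted p 0.0118) and the replicate block (adjusted p 0.00203).

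*Jak3*, which pairs with the common γ chain and is largely confined to blood cells, changed little. It held 233, 301, 304 and 290.4 CPM in unstimulated untreated samples and 299, 387, 407 and 365 CPM in stimulated untreated samples. Those ranges overlapped, and beads raised it 1.28-fold (log2 0.35, SE 0.11, adjusted p 0.0121). With PGE2 the rise was 1.31-fold (log2 0.39, SE 0.12, adjusted p 0.0153), from 243 to 341 CPM in unstimulated to 335 to 443 CPM in stimulated samples. The latter call was lost without replicate 3 of the stimulated PGE2 group (log2 0.31, adjusted p 0.0583). PGE2 itself gave a log2 difference of 0.14 in each state, not called without the block (adjusted p 0.454 in unstimulated and 0.468 in stimulated cells). With the replicate block it was called higher in both (log2 0.13, adjusted p 0.0157, and log2 0.14, adjusted p 0.029). Per length, *Jak1* exceeded *Jak3* in unstimulated cells, with a mean ratio of their FPKM (fragments scaled by gene length and depth) of 2.08 ± 0.69 (SD, n = 4) untreated and 1.98 ± 0.82 with PGE2, and fell below it in stimulated cells, at 0.762 ± 0.136 and 0.799 ± 0.115.

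The STAT5 genes responded unequally to beads. *Stat5a* rose from 88.2, 102, 95.8 and 116 CPM in unstimulated untreated samples to 628, 636, 598 and 474 CPM in stimulated untreated samples. There was no overlap, and the fold was 5.76 (log2 2.53, SE 0.12, adjusted p 1.27e-08). With PGE2 it rose from 80.8, 79.4, 81.2 and 95.9 CPM to 526, 502, 452 and 356 CPM, again without overlap (5.5-fold, log2 2.46, SE 0.13, adjusted p 1.1e-06). Within each state the level with PGE2 was lower in 4 of 4 same-numbered pairs, by 0.13 to 0.36 log2 units in unstimulated and 0.26 to 0.41 in stimulated cells. Without the block neither difference was called (log2 -0.23, SE 0.09, adjusted p 0.0846, and log2 -0.34, SE 0.13, adjusted p 0.13), and the groups overlapped. The difference in unstimulated cells was called without replicate 1 of the untreated (adjusted p 0.0336) or replicate 4 of the PGE2 group (adjusted p 0.0256). With the replicate block both were called (adjusted p 0.000111 and 0.000274).

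*Stat5b* changed less than *Stat5a* with beads. Unstimulated untreated samples held 275, 268, 282 and 251 CPM, and unstimulated PGE2 samples 391, 353, 341 and 323 CPM, all higher (1.33-fold, log2 0.41, SE 0.06, adjusted p 0.000715). Stimulated samples held 346, 357, 362 and 328 CPM untreated and 338, 345, 358 and 352 CPM with PGE2. The 3 groups that had received PGE2, beads or both thus lay in 1 range above the remaining group. Beads raised *Stat5b* 1.28-fold in untreated cells (log2 0.36, SE 0.07, adjusted p 0.000638), and the difference they made after PGE2 was 0.00 on the log2 scale (95% interval -0.15 to 0.15). The difference that PGE2 made in stimulated cells was 0.01 (95% interval -0.13 to 0.14).

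In FPKM the ratio of *Stat5a* to *Stat5b* was 0.292 ± 0.049 (SD, n = 4) in unstimulated untreated cells and 0.188 ± 0.030 in unstimulated cells with PGE2, ranges that did not overlap. In stimulated cells it was 1.3 ± 0.133 untreated and 1.03 ± 0.186 with PGE2, and the ranges, 1.12 to 1.41 and 0.786 to 1.21, did. Within same-numbered pairs it was lower with PGE2 in 4 of 4, from 1.41 to 1.21, 1.39 to 1.13, 1.28 to 0.981 and 1.12 to 0.786. *Stat5a* was thus the scarcer transcript in every unstimulated sample and the more abundant in every stimulated untreated sample. With PGE2, 2 of the 4 stimulated samples lay above a ratio of 1. FPKM rests on the summed exon length of each gene, and the shared stretches described above could blur the ratio.

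**Figure D3:**
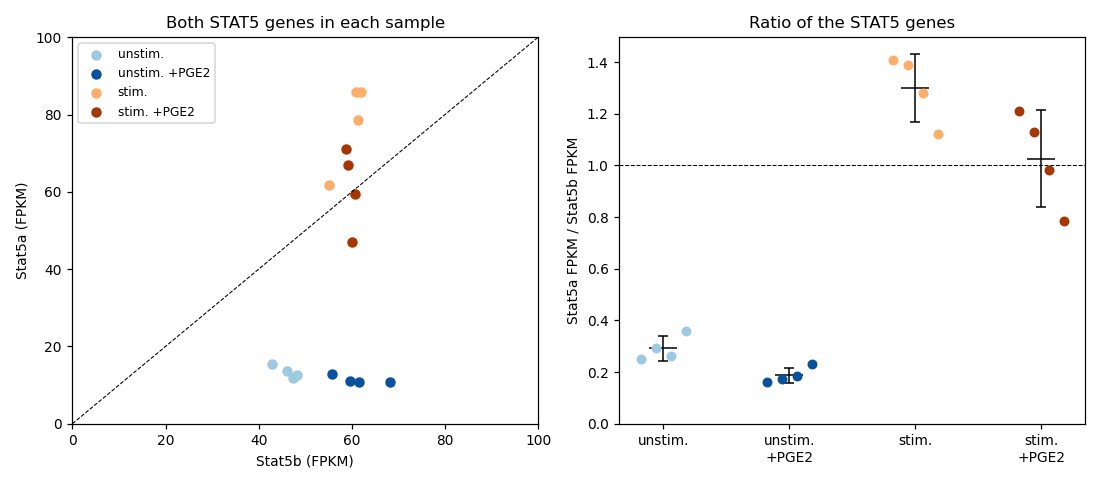
Left, *Stat5a* against *Stat5b* in each of the 16 samples, both in FPKM, with the line of equal levels dashed. Right, their ratio in the 4 groups (points, samples in order of replicate number; bars, mean and SD). Unstimulated samples lie at ratios of 0.16 to 0.36 and stimulated samples at 0.786 to 1.41.

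*Cish* encodes CIS, an inhibitor that acts on the IL-2 receptor and on T cell receptor signalling, and it rose most with beads. Unstimulated untreated samples held 38.0, 48.2, 48.7 and 65.2 CPM and stimulated untreated samples 340.4, 385, 389.7 and 326 CPM. Every stimulated sample was far above every unstimulated one (7.12-fold, log2 2.83, SE 0.14, adjusted p 1.66e-08). With PGE2 the samples held 30.5, 38.0, 51.6 and 54.5 CPM before and 379, 398, 297 and 213 CPM after beads (7.43-fold, log2 2.89, SE 0.24, adjusted p 3.46e-06). The stimulated PGE2 group was spread widely, with replicates 1 and 2 at or above the level of untreated cells and replicates 3 and 4 below it. The PGE2 difference was log2 -0.16 in stimulated cells (95% interval -0.54 to 0.23, adjusted p 0.577) and 0.00 when replicate 4 of the PGE2 group was left out. In unstimulated cells it was log2 -0.17 (95% interval -0.61 to 0.26, adjusted p 0.568), lower in 3 of 4 same-numbered pairs, and called lower with the replicate block (log2 -0.18, SE 0.06, adjusted p 0.0251).

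*Socs1* encodes an inhibitor that binds JAKs and blocks their kinase domain. It was tight in unstimulated cells, at 50.1, 48.3, 51.1 and 48.8 CPM untreated and 60.1, 64.1, 62.9 and 71.0 CPM with PGE2. The groups did not overlap, and PGE2 raised it 1.32-fold (log2 0.40, SE 0.07, adjusted p 0.000884), a call lost when all 16 samples shared 1 estimate of spread (log2 0.38, adjusted p 0.149). Beads raised it 3.69-fold in untreated cells, to 190.1, 201, 202 and 145 CPM (log2 1.89, SE 0.11, adjusted p 2.83e-08). After PGE2 the stimulated samples ran from 110 CPM in replicate 4 to 257 CPM in replicate 1, 3.04-fold above the unstimulated ones (log2 1.61, SE 0.23, adjusted p 0.000105). Against untreated stimulated cells the PGE2 difference was log2 0.08 with a 95% interval of -0.44 to 0.59, too wide to place the effect. It was higher in replicates 1 and 2 and lower in replicates 3 and 4.

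*Socs2*, whose product joins the ubiquitin ligase that degrades the growth hormone receptor, was the only gene of the 10 called in the same direction for PGE2 in both states without the block. Unstimulated untreated samples held 33.9, 44.1, 42.0 and 48.5 CPM and those with PGE2 23.4, 24.0, 29.5 and 28.2 CPM. The 4 PGE2 samples were all lower, by 1.58-fold (log2 -0.66, SE 0.12, adjusted p 0.00167). Stimulated untreated samples held 50.4, 51.1, 62.3 and 56.8 CPM and those with PGE2 31.5, 37.4, 39.4 and 34.3 CPM, again without overlap (1.54-fold lower, log2 -0.62, SE 0.10, adjusted p 0.00386). All 14 alternatives kept the call in each state, with log2 values of -0.75 to -0.50 and -0.67 to -0.51. Beads moved *Socs2* the other way, 1.29-fold up in untreated cells (log2 0.37, SE 0.11, adjusted p 0.00806) and 1.37-fold up with PGE2 (log2 0.45, SE 0.11, adjusted p 0.00354). Per length it was the lowest of the 10 genes in each of the 4 groups, at 2.65 ± 0.31 to 5.49 ± 0.46 FPKM (SD, n = 4).

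*Socs3* encodes the inhibitor of IL-6-type and other cytokine receptors and differed from *Cish* and *Socs1* by not rising with beads. Unstimulated untreated samples held 48.1, 42.2, 40.9 and 35.8 CPM, and those with PGE2 59.0, 50.6, 54.4 and 49.7 CPM, all higher (1.3-fold, log2 0.38, SE 0.09, adjusted p 0.00663). Stimulated untreated samples held 33.0, 35.6, 37.7 and 33.9 CPM and those with PGE2 48.7, 46.6, 42.4 and 29.8 CPM. In stimulated cells replicates 1 to 3 with PGE2 exceeded every untreated sample and replicate 4 lay below them all. The difference was log2 0.26 (SE 0.14, adjusted p 0.241), and without that replicate it was called (log2 0.40, SE 0.08, adjusted p 0.0224). Beads lowered *Socs3* in untreated cells 1.2-fold with overlapping ranges (log2 -0.26, SE 0.09, adjusted p 0.0209), a call lost in 5 of 14 alternatives, 3 of them the omission of a single sample (unstimulated untreated replicate 1, or stimulated untreated replicate 1 or 4). With PGE2 the difference was log2 -0.33 (SE 0.14, adjusted p 0.0599), not called although the ranges did not overlap. It was called in 6 of 14 alternatives, among them the omission of replicate 1 (adjusted p 0.0266) or 2 (adjusted p 0.0339) of the stimulated PGE2 group.

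In the stimulated PGE2 group replicate 4 was the lowest of the 4 samples for 6 of the 10 genes (*Cish*, *Socs1*, *Socs3*, *Stat5a*, *Pim1* and *Pim2*) and the highest for none. In the stimulated untreated group replicate 4 was likewise the lowest for 5 genes (*Cish*, *Socs1*, *Stat5a*, *Stat5b* and *Pim1*) and the highest for none. Replicate 1 of the unstimulated untreated group was the lowest for 6 genes and the highest for 2. Each of these samples had the fewest total counts of its group (23236175, 24536527 and 22678254, in this order). In the unstimulated PGE2 group the sample with the fewest, replicate 1 (27948936), was the lowest for 5 genes and the highest for 4. The part of sequencing depth in these levels, which are scaled for it, was not tested.

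*Pim1*, a serine/threonine kinase gene induced by cytokine and T cell receptor signals, rose with beads from 155, 161, 159 and 180.4 CPM to 637, 599, 603 and 539 CPM in untreated cells. The groups were far apart (3.6-fold, log2 1.85, SE 0.08, adjusted p 1.12e-08). With PGE2 it rose from 175, 167, 167 and 174 CPM to 589, 604, 528 and 445 CPM (3.21-fold, log2 1.68, SE 0.10, adjusted p 1.19e-06). PGE2 made a log2 difference of 0.08 in unstimulated (95% interval -0.05 to 0.21) and -0.13 in stimulated cells (95% interval -0.35 to 0.10), called under none of the 14 alternatives in either state.

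*Pim2* encodes the kinase of the same family known for driving cap-dependent translation, and it stood higher at rest and responded less to beads. Unstimulated untreated samples held 326, 356, 378 and 427 CPM and stimulated untreated samples 595, 612, 789.9 and 677 CPM (1.78-fold, log2 0.83, SE 0.11, adjusted p 1.55e-05). PGE2 lowered it in unstimulated cells to 232, 241, 266 and 266 CPM, below every untreated sample (1.46-fold lower, log2 -0.54, SE 0.09, adjusted p 0.00107). From there beads raised it 2.14-fold, to 499, 553, 636 and 439 CPM (log2 1.10, SE 0.11, adjusted p 1.31e-05). In stimulated cells the PGE2 samples overlapped the untreated ones (log2 -0.32, SE 0.13, adjusted p 0.137). They were lower in 4 of 4 same-numbered pairs, and with the replicate block the difference was called (log2 -0.33, SE 0.07, adjusted p 0.00395).

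**Figure D4:**
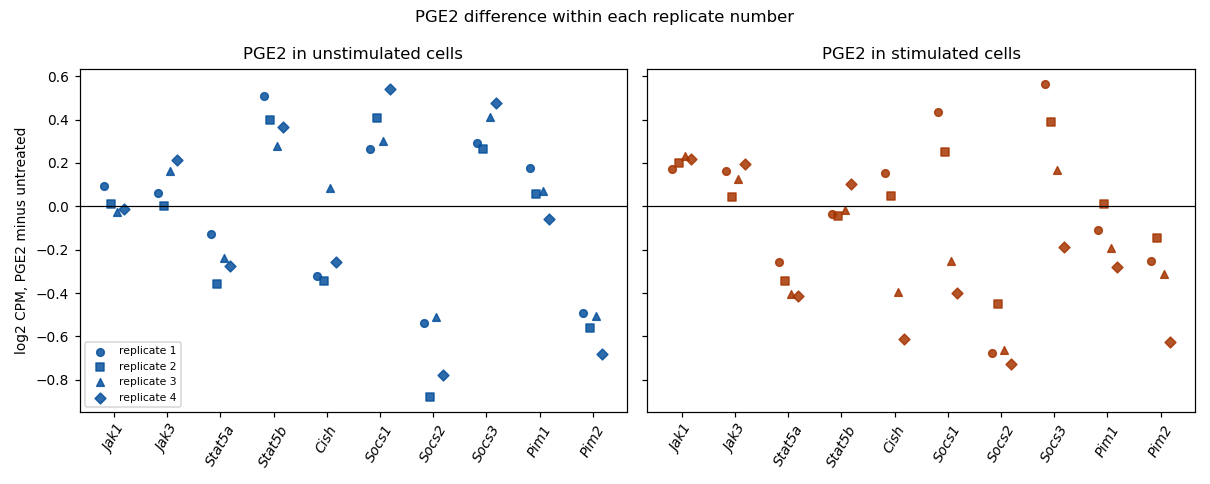
Difference in log2 CPM between the PGE2 and the untreated sample of the same replicate number (y axis) for each gene (x axis), in unstimulated (left) and stimulated cells (right). Marker shapes give the replicate. *Socs2*, *Stat5a* and *Pim2* lie below zero in all 4 pairs of both panels, and *Cish* and *Socs1* fall on both sides of zero in stimulated cells.

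Within a group, levels of different genes are compared in FPKM. In unstimulated untreated cells the order was *Pim2* (126 ± 14 FPKM, SD, n = 4), *Jak1* (101 ± 20), *Pim1* (59.0 ± 4.0), *Jak3* (50.1 ± 5.8), *Stat5b* (46.2 ± 2.3), *Socs1* (16.2 ± 0.4), *Socs3* (13.7 ± 1.7), *Stat5a* (13.4 ± 1.5), *Cish* (7.41 ± 1.64) and *Socs2* (4.20 ± 0.60). Neighbours whose sample ranges overlapped were *Pim2* and *Jak1*, *Jak3* and *Stat5b*, *Socs1* and *Socs3*, and *Socs3* and *Stat5a*. In stimulated untreated cells *Pim2* (227 ± 26) and *Pim1* (214 ± 18) overlapped at the top. *Stat5a* (78.0 ± 11.3), *Jak3* (64.7 ± 7.6), *Socs1* (60.5 ± 9.4), *Stat5b* (59.8 ± 3.2), *Cish* (53.4 ± 4.8) and *Jak1* (48.5 ± 2.6) followed, each overlapping the next. *Socs3* (11.5 ± 0.6) and *Socs2* (5.49 ± 0.46) were set apart below. With PGE2 the order in stimulated cells ran *Pim1* (195 ± 27), *Pim2* (180.5 ± 27.5), *Jak3*, *Socs1*, *Stat5a*, *Stat5b*, *Jak1*, *Cish*, *Socs3*, *Socs2*. There *Pim2* stood apart from *Jak3*, *Stat5b* from *Jak1*, *Cish* from *Socs3* and *Socs3* from *Socs2*, while the other neighbours overlapped.

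Whether the effect of PGE2 differed between stimulated and unstimulated cells was tested over all 16 samples. By edgeR 0 of the 10 genes passed, against 0.749% of all genes (0.232% with a difference of at least 1 on the log2 scale). Of the 10, *Stat5b* alone had an unadjusted p below 0.05 (log2 difference -0.39, SE 0.09, p 0.000487, adjusted p 0.0593). DESeq2 called it (adjusted p 0.00256) and limma on log2 FPKM called none of the 10. The replicate block (adjusted p 0.0118) and the fit without replicate 4 of the unstimulated PGE2 group (adjusted p 0.0337) also called it. For *Socs1* the difference was -0.31 (95% interval -0.85 to 0.23), for *Pim2* it was 0.24 (-0.10 to 0.57), and *Socs3* gave -0.10 (-0.47 to 0.27). With all samples and no block, edgeR called these 3 genes for PGE2 in unstimulated cells only. A difference between the states was not shown for them, and for *Stat5b* the call depended on the fit.

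Around the 10 genes, 30 others of the JAK–STAT pathway were counted: receptor chains, the other JAKs and STATs, further SOCS genes, phosphatases, PIAS proteins and ubiquitin ligases. All 30 were tested in each comparison. They were chosen with earlier results of these data known, so their counts set against all genes describe this list only. PGE2 called 4 in stimulated cells, against 9.84% of all genes, all higher: *Stat4* (log2 0.80, SE 0.14, adjusted p 0.00723), the IL-12-activated STAT, *Stat3* (0.67, SE 0.11, adjusted p 0.00531), *Cblb* (0.58, SE 0.07, adjusted p 0.00152), a ubiquitin ligase that restrains T cell activation, and *Socs5* (0.38, SE 0.07, adjusted p 0.00914). In unstimulated cells it called 15 (28.4% of all genes), 11 higher and 4 lower, among them *Stat3* (0.95), *Cblb* (0.54) and *Stat4* (0.36) upwards and *Ptpn6* (-0.89), which encodes the phosphatase SHP-1, *Il2ra* (-0.56) and *Ptpn1* (-0.27) downwards. Their medians were 0.07 and 0.13. With the replicate block 16 were called in stimulated cells (39.8% of all genes), 11 higher and 5 lower, and 23 in unstimulated cells (47.8%), 17 higher and 6 lower. *Ptpn6* was the only one of the 30 called for a difference in its PGE2 effect between the states (log2 0.66, SE 0.10, adjusted p 0.00382), against 0.749% of all genes.

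Beads called 21 of the 30 without and 21 with PGE2, each time 15 higher and 6 lower, with medians of 0.18 and 0.24. The shares of all genes called were 66.5% and 64.2%, so that the count is near the background. The largest rises without PGE2 were *Usp18* (log2 3.06, SE 0.21), whose product dampens interferon receptors, *Pim3* (2.86, SE 0.12) and *Il2ra* (1.76, SE 0.14). The largest falls were *Pias3* (-1.76, SE 0.14), *Stat4* (-0.81, SE 0.10) and *Il2rb* (-0.71, SE 0.08). With PGE2 they were *Pim3* (2.56), *Usp18* (2.23) and *Il2ra* (2.18) upwards, and *Pias3* (-1.53), *Pias4* (-0.54) and *Pias1* (-0.52) downwards.

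The chains of the IL-2 receptor, upstream of the 10 genes, differed from each other. *Il2ra*, the α chain of the high-affinity receptor, was at 461 ± 117 CPM (SD, n = 4) in unstimulated untreated and 308 ± 54 CPM in unstimulated PGE2 cells (log2 -0.56, SE 0.17, adjusted p 0.0272, ranges overlapping). In stimulated cells it was at 1579 ± 80 CPM untreated and 1381 ± 236 CPM with PGE2 (log2 -0.19, SE 0.12, adjusted p 0.325). *Il2rg*, the common γ chain, was lower with PGE2 in unstimulated cells (258 ± 8 against 298 ± 8 CPM, log2 -0.18, SE 0.05, adjusted p 0.0207), and in stimulated cells the difference was -0.10 (SE 0.08, adjusted p 0.423). *Il2rb* was not called for PGE2, with log2 0.13 in unstimulated (adjusted p 0.106) and 0.29 in stimulated cells (adjusted p 0.0543). Its ranges nevertheless did not overlap. They were 1410 to 1592 CPM with PGE2 against 1321 to 1370 CPM untreated in unstimulated cells. In stimulated cells they were 1004 to 1043 against 742 to 930.8 CPM. Of all genes tested, 28.9% and 17.9% showed such a separation. Beads raised *Il2rg* (log2 0.36, SE 0.08, adjusted p 0.00181) and lowered *Il2rb* (adjusted p 4.43e-06) in untreated cells.

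Of 25 genes known as STAT5 targets in T cells, PGE2 called 7 in stimulated cells (9.84% of all genes), 6 of them lower (3.8%), and 15 in unstimulated cells (28.4%), 12 lower (15.5%). The medians were -0.27 and -0.23, beside -0.01 and 0.00 over all genes, and with the replicate block 18 were called in stimulated (39.8% of all genes) and 21 in unstimulated cells (47.8%). The largest falls in stimulated cells were the cytokine genes *Lta* (log2 -1.66, SE 0.33, adjusted p 0.0115) and *Osm* (-1.07, SE 0.17, adjusted p 0.00355) and the granzyme gene *Gzmb* (-0.91, SE 0.07, adjusted p 0.000109), and the only rise was *Tnfrsf18* (0.41, SE 0.10, adjusted p 0.0332). In unstimulated cells *Lta* (-1.38), *Il10* (-1.24, at under 1 CPM) and *Eomes* (-1.13) fell most, and *Tnfrsf18* (0.86), *Bcl6* (0.47) and *Furin* (0.22) rose. Many of these genes also answer to the T cell receptor, and a target list does not measure STAT5 activity. The list was chosen with earlier results of these data known. Its counts and medians set against all genes therefore describe this list and do not test STAT5 targets as a class. Beads called 23 without PGE2 (66.5% of all genes), 21 higher and 2 lower, with a median of 1.78, led by *Il10* (3.38), *Lta* (3.29) and *Myc* (3.10). With PGE2 they called 21 (64.2%), 19 higher and 2 lower, with a median of 1.44, led by *Myc* (3.86), *Eomes* (3.33) and *Bcl2l1* (3.20). *Bcl6* and *Ccnd3* were the 2 that fell in each. The list does not say whether STAT5 raises or lowers each gene, and the counts and medians pool all 25. *Batf* was the only target called for a difference in its PGE2 effect between the states (log2 -0.67, SE 0.15, adjusted p 0.0415), against 0.749% of all genes. No target was called when 1 of 12 of the 16 samples was left out.

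**Figure D5:**
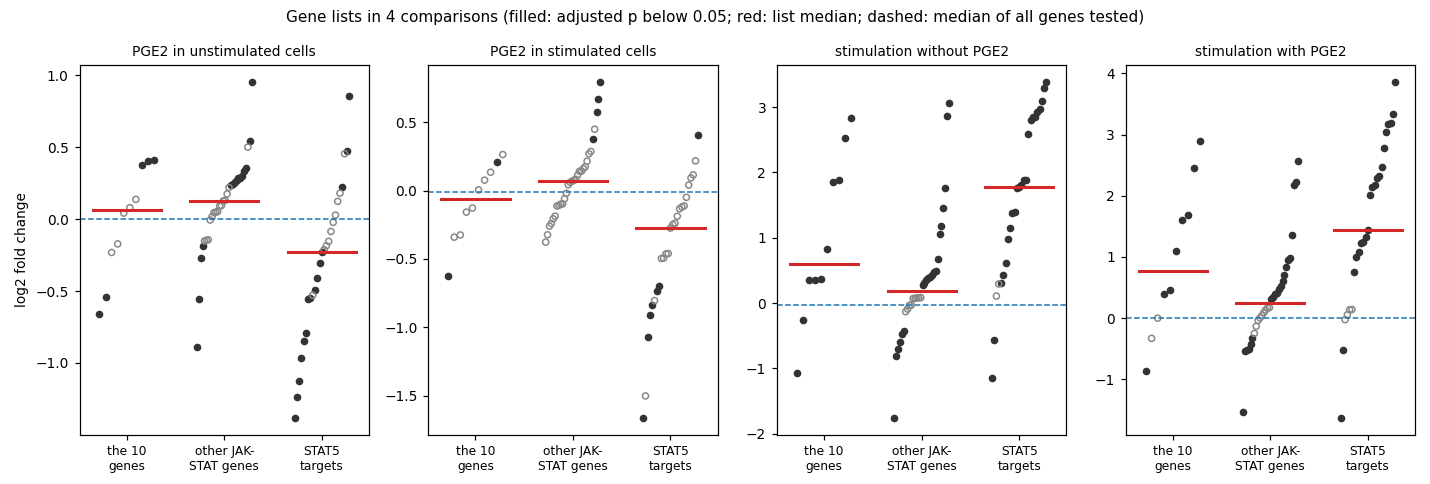
Log2 fold change (y axis, a scale of its own in each panel) of the 10 genes, 30 other JAK–STAT genes and 25 STAT5 targets in 4 comparisons. Each point is a gene, filled where the adjusted p is below 0.05, red bars are list medians and the dashed line is the median of all genes tested. The targets lie mostly below the line with PGE2 and above it with beads.

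The genes whose pattern over the 16 samples was most like that of 4 members were sought among the 8869 genes of at least 10 mean CPM, by the root mean square difference of log2 CPM after centring each gene. For *Cish* they were *Spire1* (0.192), *Gzmc* (0.232) and *Pim3* (0.251), for *Pim1* they were *Ccdc137* (0.103), *Cd200* (0.104) and *Nfkb2* (0.111). For *Socs2* they included *Snhg5* (0.14) and *Slc25a42* (0.141), and for *Socs3* they were *Il4ra* (0.102), *Vps13d* (0.117) and *Rnf111* (0.133). *Il4ra*, the receptor chain for IL-4, moved like *Socs3* in being lowest in stimulated untreated cells (279 ± 9 CPM, SD, n = 4) and highest in unstimulated PGE2 cells (391 ± 64 CPM). The likeness describes these samples and is no test.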

How the data were processed

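Poly(A)-selected RNA-seq of 16 samples, 4 in each of 4 groups, was analysed. The authors aligned reads to GRCm38 and counted them per gene, and the submitters' processing notes name HISAT2 2.0.5, featureCounts 1.5.0-p3 and DESeq2 1.20.0. The deposited counts are whole reads per gene without normalization. In the deposited FPKM values each count is scaled by gene length and by the sample's total, apart from a factor of 0.878 to 1.11 that differs by sample. Neither the annotation release nor the use of strand is given in the sources used here. Gene overlaps and transcripts came from GENCODE release M21, in which *Pim1* has other ends than in the deposited table, and upstream windows from RefSeq.

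Genes were filtered with filterByExpr (minimum count 10), scaled by TMM and tested with edgeR 4.0.16 in R 4.3.3 (glmQLFit, glmQLFTest, 2-sided, Benjamini–Hochberg adjustment over all genes tested, threshold 0.05). Pairwise fits held the 8 samples compared, and the interaction fit held all 16. The test was checked on simulated data with known changes. Alternatives were DESeq2 1.42.0, RLE factors, no filter, limma 3.58.1 on log2(FPKM + 1) for genes of mean FPKM at least 1, the replicate block, 1 fit of all 16 samples, a 2-fold rule, and each sample left out in turn. The labels number the replicates without saying what a number shares. Deviations of same-numbered samples from their group means correlated at 0.19 to 0.423 for PGE2 in stimulated cells, 0.137 to 0.444 for PGE2 in unstimulated cells and 0.112 to 0.359 for stimulation without PGE2, and these were taken as paired. For stimulation with PGE2 the correlations were also positive but lower, at 0.0439 to 0.281. That comparison and the interaction were not taken as paired. The main tests used no pairing in any comparison, and the replicate block is 1 of the alternatives. Samples of different number correlated, in the same order, at -0.385 to 0.25, -0.378 to 0.124, -0.28 to 0.125 and -0.255 to 0.157. Stimulated PGE2 replicate 2 correlated more with stimulated untreated replicate 1 (0.247) than with replicate 2 (0.19).

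The 10 members, the 30 pathway genes and the 25 targets (*Il2ra* is in both lists) were chosen with earlier results of these data known. Of each list the text names the IL-2 receptor chains and at most the 3 largest rises and 3 largest falls among called genes, and for *Cish*, *Socs2*, *Socs3* and *Pim1* the 3 most alike genes, of which 1 is not reported here.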

Additional observations from a re-analysis of the deposited data

Results flagged for a closer look

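In each of the 40 sets of 4 samples (10 genes in 4 groups) the gap between the highest or the lowest sample and its nearest neighbour was divided by the whole range. By chance about 1 in 20 such sets passes the limit of 0.829 (Dixon's 95% value), and 1 of the 40 did. It was *Stat5a* in unstimulated cells with PGE2, where replicate 4 stood at 95.9 CPM and the others at 79.4 to 81.2 CPM, a share of 0.896. Without that sample the PGE2 difference of *Stat5a* in unstimulated cells was log2 -0.30 (SE 0.09) and was called by edgeR (adjusted p 0.0256), where it was not with all samples.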

How the results depend on the processing

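Of 770 values of the 10 genes under an alternative, 733 kept their side of the threshold, 19 lost and 18 gained a call, and no called value changed sign. A sign change occurred in 41, none called. For PGE2 in stimulated cells only *Socs2* was called with RLE factors, without the filter, with limma and in 1 fit of all 16 samples. Over all genes these fits called 1371 of 13922, 1317 of 25904, 1038 of 11102 and 2161 of 15096. The replicate block called 5 members, 16 pathway genes and 18 targets, against 39.8% of all genes. In 1 fit of all 16 samples 7 pathway genes were called. For PGE2 in unstimulated cells the replicate block called 8 members and 23 pathway genes, against 47.8% of all genes. With a fold change of at least 2 the members called were 0 for PGE2 in each state and 5 for stimulation without and 5 with PGE2. For the interaction DESeq2 called 1 member and the replicate block 1 member and 2 targets, and limma 0 targets. Over all genes these 3 called 234 of 28205, 408 of 15096 and 43 of 11252. Where the numbers were not taken as paired, the block also called *Socs3* lower for stimulation with PGE2 (log2 -0.36, adjusted p 0.0262). It changed no member call for stimulation without PGE2.

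Leaving out 1 sample gave 1 to 2 members for PGE2 in stimulated cells, 0 to 1 for the interaction, and 0 to 2 targets for the interaction. Of targets called for PGE2 in stimulated cells it left 5 to 10. Over all genes those fits called from 630 of 14017 to 1854 of 14032 for PGE2 in stimulated cells. For the interaction they called from 44 of 15437 to 217 of 15427. Intervals for *Cish* and *Socs1* in stimulated cells spanned changes in either direction.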
